A study of Mus musculus with 10 samples.

Results

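The genes described here are those of the constitutive proteasome, its activators, and its assembly factors. They were taken as the protein-coding genes with a mean of at least 10 counts over the 10 libraries whose symbol begins with Psma, Psmb, Psmc, Psmd, Psme, Psmf, or Psmg and a number, without the interferon-induced core subunits Psmb8, Psmb9, and Psmb10. The rule used no difference between genotypes, and it gave 45 of the 21939 genes in the deposited table. Of these, 15 were subunits of the core, 17 of the cap, 5 were activators or the inhibitor, 7 were assembly factors, and 1, Psme3ip1, encodes a protein that binds the activator Psme3 and is no subunit itself. The members with the lowest means were Psma8 with 20.2 and Psmg4 with 122.1 counts. Below the minimum were Psme2b with 7.9 counts, Psmc3ip with 5.5, and Psmb11 with 0.

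The counts came from mRNA of hepatocytes that had been freshly isolated from adult male mice by liver perfusion and density centrifugation. The age of 8 to 9 weeks that the labels give is, by the study's methods, that before the injection. All mice, controls included, had received AAV8Cre, an adeno-associated virus that delivers Cre recombinase under the hepatocyte promoter of thyroxine-binding globulin, 12 days earlier. The 3 control mice were C57BL6/j animals without floxed alleles, and the floxed mice shared that background. Of these, 2 mice carried Nrf2 flox/flox (Nrf2 KO), 2 carried p65 flox/flox (p65 KO), and 3 were floxed for both genes (DKO), so that each library came from 1 mouse. Nrf2 is the transcription factor that activates antioxidant genes, and p65, encoded by Rela, is the transactivating subunit of NF-κB.

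The proteasome degrades proteins that carry ubiquitin chains. Its core is a barrel of outer alpha rings and inner beta rings, and the beta subunits Psmb5, Psmb6, and Psmb7 carry the peptidase sites. The cap binds, unfolds, and deubiquitinates the substrate and feeds it into the barrel, with a ring of Psmc ATPases and a lid and base of Psmd subunits. Psme proteins are alternative activators that open the barrel without the cap, Psmf1 inhibits the core, and Psmg chaperones build it. Transcription of the subunits is known to be raised together by Nrf1, encoded by Nfe2l1, when proteasome activity is limiting, and Nrf2 has been linked to subunit genes under oxidative stress. In interferon-treated cells, Psmb8, Psmb9, and Psmb10 take the places of Psmb5, Psmb6, and Psmb7 in newly made cores.

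Total counts per library were between 33707165 and 49897382. Values below are normalised counts, which are the deposited counts rescaled to a common library size with TMM factors. They were not divided by gene length and are compared between mice for 1 gene, not between genes. A gene was called when its Benjamini-Hochberg adjusted p in edgeR's quasi-likelihood test was at most 0.05 over all 13641 genes tested. Counts over a whole gene do not show the loss of single exons and could not check the deletions: Rela was at 1221, 1276, and 1269 in the libraries labelled control and at 1182 and 1209 in those labelled p65 KO, and Nfe2l2, which encodes Nrf2, was higher in Nrf2 KO (4739 and 5005) than in control (2318, 1991, and 1990). The study itself reported an efficient knockout of both genes in hepatocytes 12 days after the injection, by quantitative PCR and Western blot. Of 6 Nrf2 target genes, 4 were called lower in Nrf2 KO, 3 in p65 KO, and all 6 in DKO, with Gstm1, a glutathione transferase, at a log2 fold change of -2.96 in Nrf2 KO. Of all genes tested, 0.594%, 6.77%, and 2.84% were called lower in Nrf2 KO, p65 KO, and DKO. The libraries differed in cells other than hepatocytes. All 10 genes listed for Kupffer cells and macrophages were called higher in p65 KO, where they summed to 4313 and 5841 normalised counts, compared with 347 to 904 in control and 1574 to 2779 in DKO. All 6 genes of sinusoidal endothelial cells were also called higher in p65 KO, with sums of 2523 and 3509 compared with 524 to 1081 in control. Of the 13641 genes tested, 1109 were called higher in p65 KO. The sum of 5 stellate cell genes was 1351 and 1433 in p65 KO and 103 to 210 in control. T and NK cell genes summed to at most 17.9 in any library. The sum of 4 erythroid genes was 164 to 1141 in DKO and 51.9 to 182 in control. The sum of 10 hepatocyte genes was 3746000 to 5231000 in control, 4244000 and 4456000 in p65 KO. What these cells contributed to the proteasome values was not tested, and in such bulk samples fewer cells of a type and less RNA per cell cannot be told apart.

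Core and cap subunits had lower values in p65 KO than in control, and 10 of the 32 passed the test. Of the 45 members, 10 were called lower and none higher, which is 22.2% of them, compared with 6.77% of all genes tested that were called lower. Of the 3768 genes with a mean of at least 1000 normalised counts, 13.2% were called lower, and of the 37 members among them 10 (27.0%) were. The median log2 fold change was -0.37 over the 32 core and cap subunits, a level of 0.776 of control, -0.14 over the other 13 members, and 0.00 over all genes tested. Of the core and cap subunits, 31 of 32 had a value below control, the exception being Psma8, a testis subunit with 20 and 21 normalised counts in p65 KO. Both p65 KO libraries were below all 3 control libraries for 34 of the 45 members, where 23.8% of all genes tested showed such a separation. No called member also had a log2 fold change of at least 1, which 6.59% of all genes had. The calls depended on single libraries, and the 10 genes were called in 13 to 18 of the 19 fits run. Without p65 KO replicate 1, none of the members was called and the median of all 45 was -0.23 instead of -0.34, in a fit that assumes the lone p65 KO library to vary like the other groups. Without control replicate 1, 4 were called, and without control replicate 2, 6 were.

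**Figure D1:**
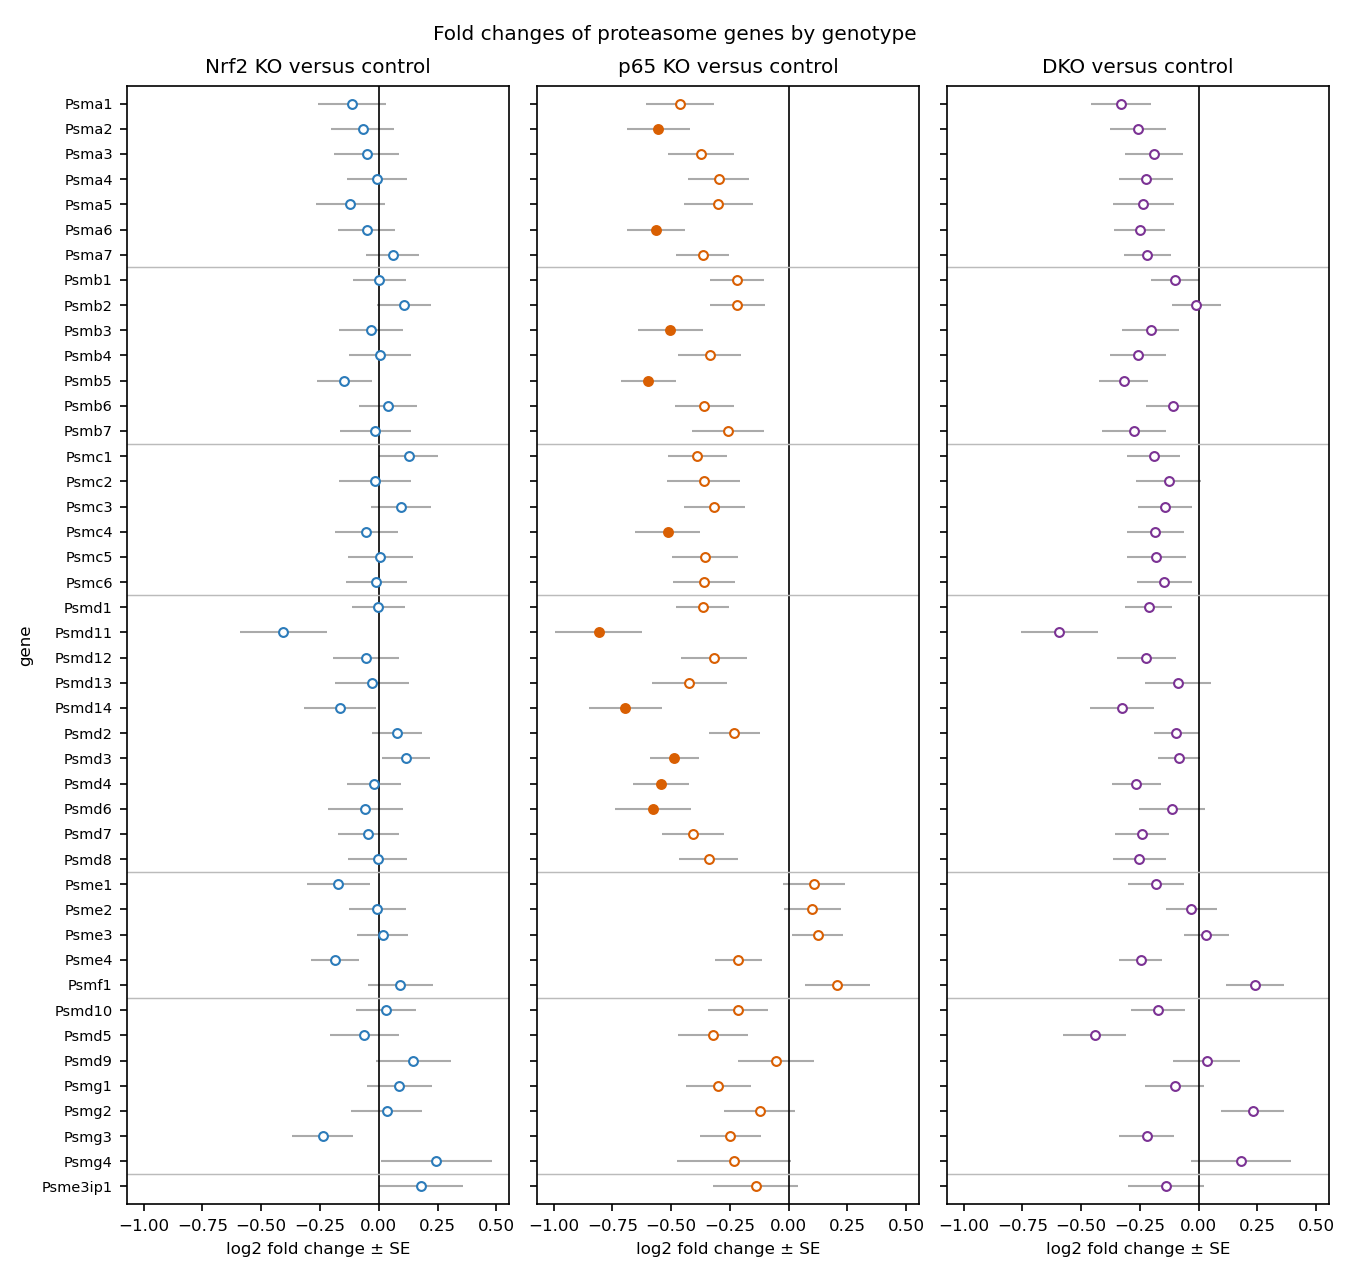
Log2 fold change (x axis, with its SE) of each member except Psma8 (y axis, ordered by class from the alpha ring at the top) in Nrf2 KO, p65 KO, and DKO against control. Filled points are genes called at an adjusted p of at most 0.05. The 10 filled points are all in p65 KO and among the core and cap subunits, where the values run from -0.81 to -0.22, and the points of Nrf2 KO lie on both sides of 0.

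Of the catalytic core subunits, only Psmb5 was called. Psmb5, which carries the chymotrypsin-like site (ENSMUSG00000022193, GRCm39 chr14:54850776-54855481), was at 3102, 2733, and 2861 in the control libraries, 1734 and 2095 in p65 KO, 2329, 2192, and 2448 in DKO, and 2529 and 2711 in the Nrf2 KO libraries. The 2 p65 KO values were the lowest of the 10, and the DKO values also lay below every control library. The p65 KO mean was 1915 ± 255 (SD, n = 2) beside a control mean of 2898 ± 188 (SD, n = 3), with a log2 fold change of -0.60 ± 0.12 (SE; adjusted p = 0.00964). It was called in 18 of the 19 fits, the exception being the one without p65 KO replicate 1. Psmb6, the subunit with the caspase-like site, had 4064, 3202, and 3456 in the control libraries, 2635 and 2938 in p65 KO, 3420, 3102, and 3403 in DKO, and 3473 and 3873 in the Nrf2 KO libraries. The p65 KO libraries were again below control, but the log2 fold change of -0.36 ± 0.13 did not pass (adjusted p = 0.077). Psmb7, with the trypsin-like site, was at 5944, 4346, and 4806 in the control libraries, 3726 and 4678 in p65 KO, 4222, 3777, and 4470 in DKO, and 4834 and 5130 in the Nrf2 KO libraries. One p65 KO library lay within the control range, and the value was -0.26 ± 0.15 (adjusted p = 0.272).

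Among the other core subunits, Psmb3 of the beta ring and Psma2 and Psma6 of the alpha ring were called. Psma6 was at 3394, 3251, and 3382 in the control libraries, 2056 and 2463 in p65 KO, 2814, 2498, and 3119 in DKO, and 3134 and 3318 in the Nrf2 KO libraries. Counts of Psma2 were 3024, 2996, and 3009 in the control libraries, 1837 and 2264 in p65 KO, 2742, 2204, and 2598 in DKO, and 2611 and 3128 in the Nrf2 KO libraries. For Psmb3, they were 2783, 2576, and 2724 in the control libraries, 1695 and 2106 in p65 KO, 2618, 2046, and 2350 in DKO, and 2438 and 2831 in the Nrf2 KO libraries. In each of these genes both p65 KO libraries were below all others of control and Nrf2 KO. The log2 fold changes in p65 KO were -0.56 for Psma6 (adjusted p = 0.0151), -0.55 for Psma2 (adjusted p = 0.0229), and -0.50 for Psmb3 (adjusted p = 0.0352). Apart from Psma8, with 0.19, the core values reached from there to -0.22 for Psmb1 and -0.22 for Psmb2, noncatalytic beta subunits that did not pass (adjusted p = 0.217 and 0.226).

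In the cap, 6 of 17 subunits (35.3%) were called, beside 6.77% of all genes called lower and 13.2% of those with a mean of at least 1000. All 17 had p65 KO libraries that lay below every control library, beside 23.8% of all genes tested. Psmd11 (ENSMUSG00000017428, GRCm39 chr11:80319400-80364074), a lid subunit, was at 4586, 5346, and 5211 in the control libraries, 2694 and 3069 in p65 KO, 3188, 2626, and 4226 in DKO, and 4201 and 3424 in the Nrf2 KO libraries. It had the lowest p65 KO value of all 45 members, a log2 fold change of -0.81 ± 0.19 or 0.571 of control (adjusted p = 0.0185). Its Nrf2 KO and DKO libraries were also below control, but neither difference passed (log2 fold change -0.41 and -0.59, adjusted p = 0.533 and 0.0612). Psmd14 (ENSMUSG00000026914, GRCm39 chr2:61542026-61631607), the deubiquitinase that removes ubiquitin chains from the substrate, had 1926, 1754, and 1688 in the control libraries, 1011 and 1200 in p65 KO, 1506, 1137, and 1642 in DKO, and 1637 and 1558 in the Nrf2 KO libraries. Its log2 fold change in p65 KO was -0.69 ± 0.16 (adjusted p = 0.0169), a level of 0.618 of control, and all Nrf2 KO and DKO libraries were below the control libraries as well.

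Psmd4, a receptor for ubiquitin chains, was at 3131, 2907, and 2699 in the control libraries, 1902 and 2096 in p65 KO, 2513, 2157, and 2598 in DKO, and 2821 and 2922 in the Nrf2 KO libraries. Psmd3, a lid subunit, was at 3496, 3412, and 3339 in the control libraries, 2476 and 2401 in p65 KO, 3312, 2916, and 3443 in DKO, and 3700 and 3705 in the Nrf2 KO libraries. Psmd6, of the lid too, was at 1940, 1984, and 1838 in the control libraries, 1120 and 1454 in p65 KO, 1973, 1455, and 1896 in DKO, and 1669 and 2025 in the Nrf2 KO libraries. In Nrf2 KO none of these genes passed. For Psmd3, both Nrf2 KO libraries were above the controls, whereas those of Psmd4 lay within the control range and those of Psmd6 on either side of it. In p65 KO the log2 fold changes were -0.54, -0.49, and -0.58 (adjusted p = 0.0147, 0.0137, and 0.0371). Of the 6 ATPases, Psmc4 was called. It had 3391, 3032, and 2859 in the control libraries, 2013 and 2318 in p65 KO, 2996, 2315, and 2857 in DKO, and 2830 and 3136 in the Nrf2 KO libraries. Its log2 fold change of -0.51 (adjusted p = 0.0318) was the lowest of the ring, in which the others were between -0.39 for Psmc1 and -0.32 for Psmc3. The highest value of the cap was that of Psmd2, a large base subunit, with -0.23 (adjusted p = 0.17).

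**Figure D2:**
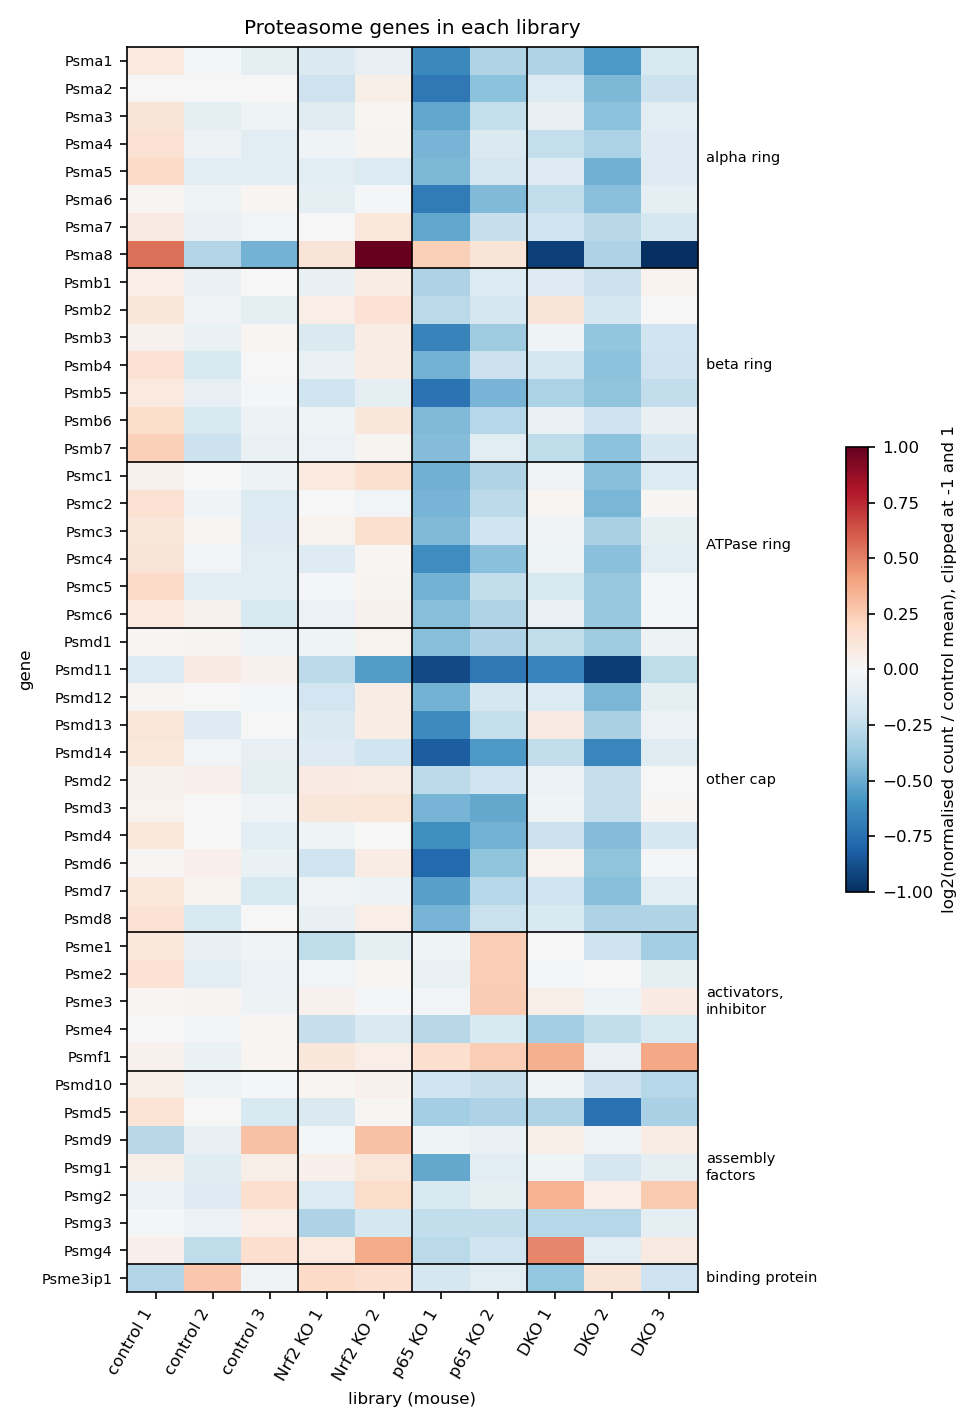
Normalised count of each of the 45 members (rows, by class) in each of the 10 libraries (columns), as log2 of its ratio to the mean of the control libraries, with colours clipped at -1 and 1. The rows of the core and cap, apart from Psma8, are blue in p65 KO replicate 1 and DKO replicate 2 and paler in the other p65 KO and DKO libraries, whereas Psme1, Psme2, Psme3, and Psmf1 are not blue in p65 KO replicate 2.

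Of the activators and the inhibitor, Psme1, Psme2, Psme3, and Psmf1 had p65 KO values above 0 and Psme4 a value below it, and none of them passed. Psme1 and Psme2 form the ring activator that interferon gamma induces, and Psme1 was at 2961, 2620, and 2682 in the control libraries, 2668 and 3261 in p65 KO, 2741, 2380, and 2173 in DKO, and 2311 and 2579 in the Nrf2 KO libraries. Psme2 was at 2446, 2057, and 2119 in the control libraries, 2110 and 2621 in p65 KO, 2195, 2218, and 2065 in DKO, and 2165 and 2232 in the Nrf2 KO libraries. Both had 1 p65 KO library above and 1 within the control range, and the log2 fold changes were 0.11 ± 0.13 and 0.10 ± 0.12 (adjusted p = 0.623 and 0.612). Psme3, the nuclear activator, had 1922, 1935, and 1836 in the control libraries, 1866 and 2268 in p65 KO, 1972, 1839, and 2014 in DKO, and 1958 and 1882 in the Nrf2 KO libraries. Psmf1 had 857, 795, and 846 in the control libraries, 938 and 985 in p65 KO, 1064, 797, and 1087 in DKO, and 903 and 872 in the Nrf2 KO libraries. Their values in p65 KO were 0.12 ± 0.11 and 0.21 ± 0.14 (adjusted p = 0.466 and 0.326), and for Psmf1 both p65 KO libraries were above all controls. Psme4, a large single-chain activator, was at 4681, 4578, and 4739 in the control libraries, 3858 and 4187 in p65 KO, 3682, 3942, and 4172 in DKO, and 3973 and 4227 in the Nrf2 KO libraries. It was below control in every knockout library, at log2 fold changes of -0.21 in p65 KO, -0.25 in DKO, and -0.19 in the Nrf2 KO mice, none of which passed (adjusted p = 0.174, 0.139, and 0.643). Under all 5 scalings and tools compared, the 31 core and cap subunits other than Psma8 had p65 KO values below 0 and Psme1 to Psme3 and Psmf1 values above 0.

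Because a scaling factor moves all genes of a library alike, the gap between the classes within a library hardly depends on it. The median log2 ratio to the control mean of the 31 core and cap subunits minus that of the 5 genes Psme1 to Psme4 and Psmf1 was -0.43 and -0.53 in the p65 KO libraries, -0.13, -0.34, and -0.02 in DKO, -0.04 and 0.05 in Nrf2 KO, and 0.06, 0.04, and -0.01 in control. By this gap, the p65 KO libraries lay apart from all others, DKO replicates 1 and 2 were lower than control and Nrf2 KO, and DKO replicate 3 was within their range. The difference between the classes was not tested, and the gap holds changes of both. The core and cap were at -0.475 and -0.283 in p65 KO replicates 1 and 2, and at -0.403 in DKO replicate 2. In the same libraries, the 5 other genes were at -0.046, 0.244, and -0.0635. Individual core and cap genes also moved together between mice of 1 genotype. In DKO replicate 2, all 31 were at the lowest of the 3 DKO values, compared with 32.7% of all genes tested, and in p65 KO replicate 1, 30 of 31 were below replicate 2, compared with 50.1%. Of the control libraries, replicate 1 held the lowest value of only 1 of the 31, compared with 37.5% of all genes tested. The members are therefore not independent of each other, and a count of them is not a count of separate observations.

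**Figure D3:**
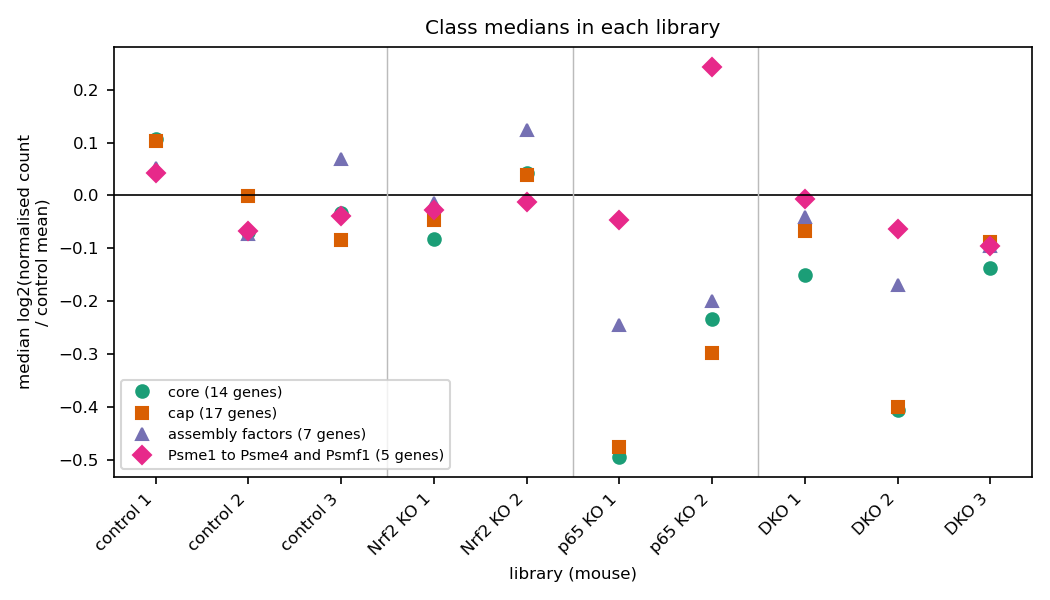
Median over the genes of each class of log2(normalised count / control mean) (y axis) in each library (x axis). Circles and squares, the core and cap without Psma8, run together and are lowest in p65 KO replicate 1 and DKO replicate 2 (core -0.49 and -0.41, cap -0.47 and -0.40), whereas the diamonds of Psme1 to Psme4 and Psmf1 stay between -0.10 and 0.24.

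None of the 7 assembly factors was called in p65 KO by edgeR or DESeq2. None had an unadjusted p under 0.05, beside 4313 of the 13641 genes tested. All 7 values were below 0, with a median of -0.23. Under scaling to equal totals, 5 of the 7 were below 0. Psmg1 and Psmg2 are chaperones that pair to start the alpha ring, and Psmg1 was at 537, 475, and 537 in the control libraries, 362 and 477 in p65 KO, 501, 459, and 483 in DKO, and 534 and 563 in the Nrf2 KO libraries. Psmg2 was at 384, 367, and 451 in the control libraries, 361 and 375 in p65 KO, 510.2, 419, and 481 in DKO, and 365 and 456 in the Nrf2 KO libraries. Their log2 fold changes in p65 KO were -0.30 ± 0.14 and -0.12 ± 0.15 (adjusted p = 0.171 and 0.618). Psmg3 and Psmg4 act in the same step as a second pair, and Psmg3 was at 348, 338, and 369 in the control libraries, 297 and 296 in p65 KO, 288, 288, and 328 in DKO, and 284 and 312 in the Nrf2 KO libraries. Psmg4 was at 120.4, 97.4, and 131 in the control libraries, 96.5 and 101 in p65 KO, 163, 108, and 124 in DKO, and 125 and 150.3 in the Nrf2 KO libraries. Neither passed, with values of -0.25 ± 0.13 and -0.23 ± 0.24 (adjusted p = 0.221 and 0.546). The chaperones of the cap base, Psmd5, Psmd9, and Psmd10, had values of -0.32, -0.05, and -0.22. The lowest DKO value among the assembly factors was that of Psmd5, with 1338, 1214, and 1096 in the control libraries, 963 and 981 in p65 KO, 987, 724, and 974 in DKO, and 1102 and 1229 in the Nrf2 KO libraries. Its log2 fold change in DKO was -0.44 ± 0.13 (adjusted p = 0.0817).

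The promoters were searched for letters that bear on the deleted factors. RefSeq promoter entries on build GRCm38.p6 were found for 37 of the 45 members, and the 250 bases before the start of each were read. The core of the antioxidant response element, TGACNNNGC, to which Nrf2 and Nrf1 bind, was searched on both strands and stood in 5 of 37 members (13.5%), Psmb5, Psmb6, Psmc6, Psmd12, and Psmd9, and in 10.2% of all 32851 entries. The kB consensus of NF-κB, also searched on both strands and added after the values had been seen, stood in 6 of 37 (16.2%), Psma6, Psma7, Psmd11, Psmd12, Psmd13, and Psme4, and in 7.25% of all entries. The 37 members had 41 entries, and a member was counted when any of its entries held the motif. The share of all is per entry, so members with more than 1 entry had more chances to be counted. No matches of the different motifs overlapped in the windows shown. The sequences below are short windows around the matches, with the motif in capitals, in the gene's own direction, and placed on GRCm39 by an exact match. Distances count from the RefSeq start, and GENCODE M39 has transcripts that start up to 29 bases further upstream for Psmb5, 41 for Psmd11, and 108 for Psmd12. Psma6 has 2 RefSeq starts, and the window belongs to the downstream one at chr12:55445610. It lies inside the annotated gene, since 1 of 23 transcripts begins 14603 bases further upstream, and it overlaps an exon of Gm56554, a long noncoding RNA on the opposite strand. They are shown because Psmb5, Psma6, and Psmd11 were called in p65 KO, Psmb6 is catalytic, and Psmd12 held both motifs.

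For the antioxidant response element core, the windows were the following. In Psmd12 the motif reads on the opposite strand.
Psmb5, 47 to 39 bases before the start, chr14:54855481-54855509: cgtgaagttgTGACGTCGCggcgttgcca
Psmb6, 9 to 1 bases before the start, chr11:70416154-70416182: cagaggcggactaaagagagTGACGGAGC
Psmd12, 247 to 239 bases before the start, chr11:107370104-107370132: tctGCTGTGTCAcatttgcccccctcaga
For the kB consensus, with Psmd12 again on the opposite strand, they were the following.
Psma6, 70 to 61 bases before the start, chr12:55445530-55445559: gcagtgctttGGGACGTCCCgtccccaccg
Psmd11, 109 to 100 bases before the start, chr11:80319322-80319351: tgtcgcttgcGGGACGCTCCtgggccaccc
Psmd12, 185 to 176 bases before the start, chr11:107370159-107370188: cgaggagactGGAGTCCCCCaaagccccgc

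In Nrf2 KO, the 5 members with the antioxidant response element had a median log2 fold change of -0.01, and the 32 without it -0.02, and none of either was called. In p65 KO, 2 of the 6 members with the kB consensus were called lower, Psma6 and Psmd11, with a median of -0.40 over the 6. Of the 31 without it, 7 were called lower, with a median of -0.34, beside 6.77% of all genes tested. Psmd3, which was also called, had no promoter entry and is in neither count. The difference between members with and without the motif was not tested. A match of letters is a description and says nothing of binding in these cells.

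Nrf2 KO alone gave no called member, beside 0.726% of all genes tested. No member had an unadjusted p under 0.05 either, beside 1279 of the 13641 genes tested. DESeq2 also called none. Both thresholds together were met by no member in Nrf2 KO or DKO, beside 0.55% and 2.38% of all genes. Both Nrf2 KO libraries were below all controls for 7 of the 45 members, beside 13.6% of all genes. The log2 fold changes lay on both sides of 0, with 26 of 45 below it and a median of -0.01, and the SE of 1 gene was between 0.10 and 0.24 apart from Psma8. In the core, the extremes were -0.15 for Psmb5 and 0.11 for Psmb2 among the beta subunits and -0.12 for Psma5 among the alpha subunits. In the cap outside the ATPase ring they were -0.41 for Psmd11 and 0.12 for Psmd3, and in the ring -0.05 for Psmc4 and 0.13 for Psmc1. Psma8 had few counts, with 26.5, 14.8, and 13.1 in the control libraries, 21.3 and 19.8 in p65 KO, 9.47, 14.6, and 4.58 in DKO, and 19.8 and 49.3 in the Nrf2 KO libraries. Its log2 fold change of 0.94 ± 0.59 had an adjusted p of 0.709. Averaged over both p65 states, Nrf2 loss gave no call among the members, beside 2.13% of all genes, and DESeq2 called 1, Psmd3, as higher. An unadjusted p under 0.05 was found for 2 members, beside 2547 of the 13641 genes tested.

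In DKO, where both factors were deleted in hepatocytes, the median of the 32 core and cap subunits was -0.22, compared with -0.37 in p65 KO. Over all 45 members, the medians were -0.19 in DKO and -0.34 in p65 KO. With equal totals they were -0.28 and -0.16, so this order depended on the scaling. The median of the interaction was then -0.12 instead of 0.16. Equal totals moved the other genes too. The members' median minus that of all genes with a mean of at least 50 was -0.17 in DKO under both scalings. It was -0.28 in p65 KO under both, and 0.125 and 0.123 in the interaction. All 32 DKO values were below 0, although with equal upper quartiles Psmb2 turned to 0.03. None of the 45 members was called in edgeR, beside 5.45% of all genes tested, and DESeq2 called 3 lower, Psmb5, Psmd11, and Psmd5. An unadjusted p under 0.05 was found for 9 members, all lower. Of the 13641 genes tested, 1447 were lower and 1626 higher at that cut. Without DKO replicate 2, the median of all 45 members was -0.12 instead of -0.19. All 3 DKO libraries lay below all 3 controls for 17 of the 45 members, beside 13.2% of all genes. The lowest adjusted p was that of Psmd11 (0.0612), and the smallest difference in the core and cap was that of Psmb2 (-0.01). In the other classes, the values were between -0.44 for Psmd5 and 0.24 for Psmf1, an inhibitor with 2 of 3 DKO libraries above all controls. Whether DKO differed from p65 KO beyond the effect of Nrf2 was examined by the interaction, for which no member was called, beside 0.469% of all genes. Of the members, 5 had an unadjusted p under 0.05, beside 1888 of the 13641 genes tested, and DESeq2 called none. The smallest p was that of Psmb5 (interaction 0.42 ± 0.16 on the log2 scale, adjusted p = 0.298).

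DKO and Nrf2 KO differ in p65 alone, and this comparison shares no library with that of p65 KO and control. It was added after the values had been seen. No member was called, beside 0.191% of all genes called lower, and DESeq2 called none. An unadjusted p under 0.05 was found for 4 members, all lower. Of the 13641 genes tested, 863 were lower and 1098 higher at that cut. All 32 core and cap subunits had a value below 0, with a median of -0.19. The median of all 45 members was -0.17, and it was -0.10 without DKO replicate 2 and -0.27 with equal totals. The 10 genes called in p65 KO were also below 0 here, from -0.25 to -0.06, compared with -0.81 to -0.49 in p65 KO. Of the 45 members, 38 (84.4%) were below 0 in both comparisons, where 31.5% of all genes tested were. Genes with high counts leaned lower as well. Of the 3768 with a mean of at least 1000, 60.2% were below 0 in p65 KO and 62.6% in DKO against Nrf2 KO. Of the 37 members among them, 91.9% and 97.3% were. The share of such genes below 0 in both was not computed, and the members are not independent of each other. Averaged over both Nrf2 states, p65 loss gave 16 members called lower and none higher, beside 6.81% of all genes called lower and 12.8% of those with a mean of at least 1000. They were the alpha subunits Psma1, Psma2, Psma6, and Psma7, the beta subunits Psmb3 and Psmb5, the ATPases Psmc1 and Psmc4, the cap subunits Psmd1, Psmd3, Psmd4, Psmd7, Psmd8, Psmd11, and Psmd14, and the assembly factor Psmd5. Psmd4 had a log2 fold change of -0.39 ± 0.08 (adjusted p = 0.0115). Without Nrf2 KO replicate 2 or without p65 KO replicate 1, 1 member was called, Psmd11 and Psmd3, respectively, while the medians of the 45 members were between -0.33 and -0.22 over all libraries left out in turn. Without control replicate 1 or Nrf2 KO replicate 1, 5 were called. Without control replicate 2, 10 were called, and without DKO replicate 2, 9 were.

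The interferon-induced subunits, which are not among the 45 members, had p65 KO values above control, where those they replace had values below it. Psmb8, the counterpart of Psmb5, was at 579, 531, and 612 in the control libraries, 974 and 1062 in p65 KO, 882, 1066, and 674 in DKO, and 529.9 and 608 in the Nrf2 KO libraries. Psmb9, that of Psmb6, was at 294, 332, and 349 in the control libraries, 658 and 865 in p65 KO, 732, 754, and 402 in DKO, and 364 and 264 in the Nrf2 KO libraries. Psmb10, that of Psmb7, was at 720.0, 618, and 671 in the control libraries, 1399 and 1351 in p65 KO, 894, 1104, and 749 in DKO, and 771 and 845 in the Nrf2 KO libraries. All 5 mice floxed for p65, which was deleted in hepatocytes only, had more Psmb8 and Psmb9 than any other mouse. The DKO value of Psmb10 in replicate 3, however, lay below those of both Nrf2 KO libraries. In p65 KO, all 3 were called higher, with log2 fold changes of 0.83 ± 0.17, 1.23 ± 0.25, and 1.04 ± 0.15 (adjusted p = 0.0119, 0.0116, and 0.00272). In DKO, Psmb8 and Psmb9 were called (0.61 and 0.95, adjusted p = 0.0476 and 0.0379) and Psmb10 was not (0.45, adjusted p = 0.0851). Of the 13641 genes tested, 1109 were called higher in p65 KO and 356 in DKO. The p65 KO call was kept in all 19 fits for Psmb10 (highest adjusted p = 0.0277). It was lost for Psmb8 without either p65 KO library, with log2 fold changes of 0.89 and 0.76 (adjusted p = 0.0567 and 0.0565), and for Psmb9 without p65 KO replicate 2, with 1.02 (adjusted p = 0.069). These fits keep 1 p65 KO library, and the other groups then give the spread. The DKO calls were made in 7 fits for Psmb8 and 11 for Psmb9, and were lost without any 1 control library and without DKO replicate 1 or 2.

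The ratio of an immune subunit to its constitutive counterpart within a library is free of any scaling, but, since counts are not per length, only its differences between mice can be read. For Psmb8 to Psmb5, the ratio was 0.187, 0.194, and 0.214 in control, 0.562 and 0.507 in p65 KO, 0.378, 0.486, and 0.275 in DKO, and 0.21 and 0.224 in the Nrf2 KO libraries. For Psmb9 to Psmb6 it was 0.0723, 0.104, and 0.101, 0.25 and 0.294, 0.214, 0.243, and 0.118, and 0.105 and 0.0683 in the same order, and for Psmb10 to Psmb7 0.121, 0.142, and 0.14, 0.375 and 0.289, 0.212, 0.292, and 0.168, and 0.16 and 0.165. In all 3 pairs, the 5 mice floxed for p65 were above the 5 other mice, and DKO replicate 3 was the closest to the latter. The geometric mean was 2.09, 2.42, and 1.78 times higher in the mice floxed for p65. The ratios were chosen after these values had been seen, and no p-value is given for them here. Of 13 genes of the interferon gamma response, 10 were called higher in p65 KO, beside 1109 of the 13641 genes tested. In DKO, 1 was called higher and 1 lower, beside 356 and 387 of all genes tested. Macrophages, whose genes were higher in the p65 KO and DKO libraries, express the immune subunits too. The part of other cells in the ratios was not tested.

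**Figure D4:**
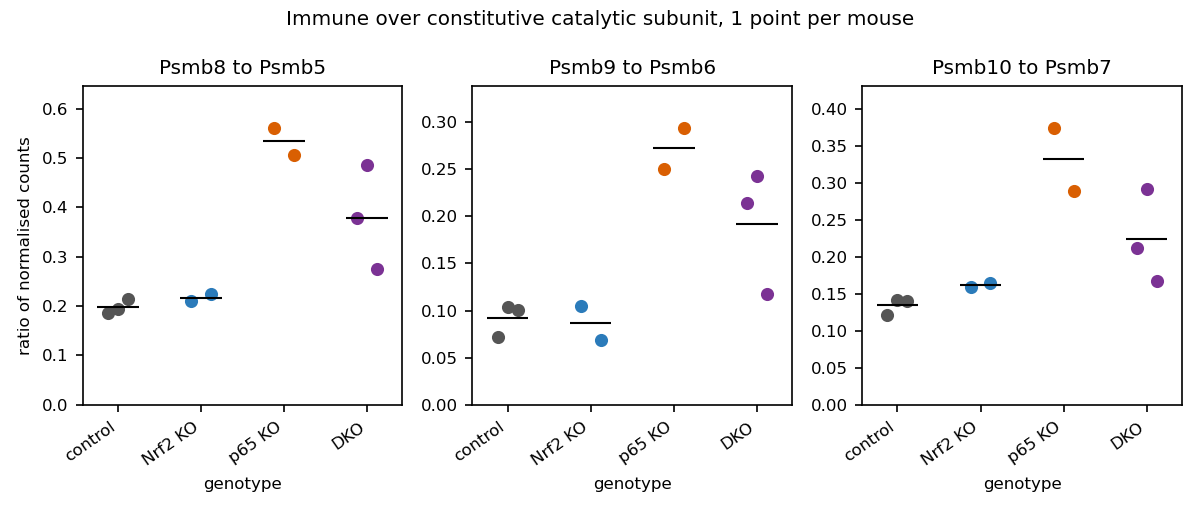
Ratio of normalised counts (y axis, starting at 0) of Psmb8 to Psmb5, Psmb9 to Psmb6, and Psmb10 to Psmb7 in control, Nrf2 KO, p65 KO, and DKO (x axis), with 1 point per mouse and the mean as a line. All p65 KO and DKO points lie above those of control and Nrf2 KO, with DKO replicate 3 closest (0.275, 0.118, and 0.168).

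Genes that serve the proteasome without the Psm name were read from a list of 13, of which 12 were tested. Their median in p65 KO was -0.33 on the log2 scale, and 1 (8.33%) was called lower, beside 6.77% of all genes tested. This was Ubqln1 (-0.45 ± 0.11, adjusted p = 0.0216), which shuttles ubiquitinated proteins to the cap. Of the 12, 6 were lower at an unadjusted p under 0.05 in p65 KO, beside 2039 of the 13641 genes tested. DESeq2 called 2 lower, Txnl1 and Ubqln1. The call of Ubqln1 in edgeR was lost in 7 of the 19 fits, among them those without either p65 KO library and without control replicate 1 or 2 (log2 fold changes of -0.47, -0.43, -0.45, and -0.38, adjusted p = 0.107, 0.0867, 0.06, and 0.058). None was called in Nrf2 KO or DKO in edgeR, and DESeq2 called 0 and 2, the latter being Ubqln1 and Zfand5, as lower. At an unadjusted p under 0.05, 2 and 3 of the 12 were lower, beside 692 and 1447 of the 13641 genes tested. Txnl1, a thioredoxin-like protein bound to the cap, was at 3344, 3258, and 3069 in the control libraries, 1890 and 2580 in p65 KO, 2757, 2189, and 3085 in DKO, and 2803 and 3222 in the Nrf2 KO libraries. Pomp, the chaperone that completes the core, was at 3221, 2914, and 3114 in the control libraries, 1926 and 3046 in p65 KO, 2846, 2353, and 2852 in DKO, and 2452 and 2730 in the Nrf2 KO libraries. Txnl1 had a log2 fold change of -0.53 ± 0.17 in p65 KO (adjusted p = 0.0566), and Pomp -0.31 ± 0.17 (adjusted p = 0.25), with p65 KO replicate 2 within the control range. Adrm1, a ubiquitin receptor of the cap, was at -0.35 and the small cap subunit Sem1 at -0.02 (adjusted p = 0.0976 and 0.923). Ecpas, which tethers the cap to the core and was the only one of the 12 with a p65 KO value above 0, was at 0.20 (adjusted p = 0.39).

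The mRNA of Nfe2l1, whose product Nrf1 activates the subunit genes, was at 4120, 3746, and 3682 in control, 3459 and 3309 in p65 KO, and 2387, 3242, and 3242 in DKO, with log2 fold changes of -0.19 ± 0.14 and -0.38 ± 0.12 (adjusted p = 0.392 and 0.104). The Nrf2 KO libraries had 3334 and 3043, with a log2 fold change of -0.27 ± 0.14 (adjusted p = 0.615). All knockout libraries were below all controls, but none of the differences passed. Ddi2, the protease that cleaves Nrf1, was at 0.24 in p65 KO, and Ngly1, which removes its sugars, at -0.29 (adjusted p = 0.337 and 0.112). Protein, activity, and assembly of the proteasome were not measured by these counts.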

How the data were processed

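Poly(A) RNA was read from 1 end, and the authors estimated transcript counts with Salmon 1.10.3 (GRCm39, GENCODE M33). The deposited estimated counts are whole numbers per gene for each mouse. The table is named as normalised, but totals (33707165 to 49897382) and size factors (0.879 to 1.26) differ, so no normalisation was assumed. No column was left over. Symbols and positions came from GENCODE M39, which held 21926 of the 21939 identifiers.

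edgeR 4.0.16 (R 4.3.3) was used for the quasi-likelihood test, with TMM, 1 model over 10 libraries, at least 10 summed counts per gene, and Benjamini-Hochberg adjustment over 13641 genes. The study also required a log2 fold change of 1. The scripts were tested on simulated data. Replicates are separate mice and differed by more than sampling noise. Figures were drawn with matplotlib 3.10.9. Levels per length were planned but not computed, since the transcripts counted for each gene are not given in the sources used here. Paaf1, of the listed genes, was not analysed here.

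The rule named members called against control, the catalytic subunits, Psmd14, Psmd4, the Psme and Psmg genes, Psmf1, the extremes of each class, those nearest the minimum, and listed counterparts, cofactors, and regulators. Psmd5, Psmd9, Psmd10, and members listed under p65 loss were named after their values were seen. Members and lists were chosen with earlier results of these data known. Alternatives were DESeq2 1.42.0, 3 other scalings, other filters, a replicate block, fits of 2 genotypes, and leave-one-out fits.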

Additional observations from a re-analysis of the deposited data

How the results depend on the processing

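The number of members called in p65 KO against control was 10 with edgeR and with DESeq2's size factors, equal upper quartiles, no filter, a mean of at least 10 counts, and only the genotypes compared. It was 4 with equal totals, 15 with the DESeq2 Wald test, and between 0 and 14 when each library was left out in turn. Psmb5 and Psma6 were called in 18 of 19 fits. For p65 loss averaged over both Nrf2 states, the 16 calls became 10 with equal totals, 9 with equal upper quartiles, 11 with DESeq2's size factors and with the filter on the mean, and 18 with the DESeq2 Wald test, and between 1 and 16 without single libraries. In DKO, the 0 calls became 3 with equal totals (Psmb5, Psmd11, and Psmd5), 3 with the DESeq2 Wald test, 1 with no filter (Psmd11), and 0 to 1 without single libraries, the 1 being Psmd11 without DKO replicate 3. Nrf2 loss averaged over both p65 states gave 1 call with the DESeq2 Wald test. No call among the members arose in Nrf2 KO, in the interaction, or in DKO against Nrf2 KO under any alternative run, the libraries left out included (0 to 0 calls). Equal totals moved the median of all genes with a mean of at least 50 by 0.18 in p65 KO, -0.09 in DKO, and -0.27 in the interaction. With it, the members' medians moved to -0.16, -0.28, and -0.12. The distance of the members from these genes stayed at -0.28 in p65 KO and -0.17 in DKO, and was 0.125 and then 0.123 in the interaction. Whole-transcriptome calls in p65 KO went from 1109 higher and 923 lower to 1632 and 355. None of the called member values changed sign. Fits that left 1 library in a genotype took its spread from the other groups.

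The labels number the replicates but do not say that the mice were paired. Correlations of the deviations of same-numbered libraries were between -0.232 and 0.113. In a group of 2 the deviations mirror each other, so these values cannot decide whether the numbers pair mice. With the replicate number as a block, 6 members were called in p65 KO and 6 for p65 loss averaged over both Nrf2 states, and no call arose elsewhere. The causes of these differences were not tested, and groups of 2 and 3 mice limit what can be called.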
